A study of Drosophila melanogaster with 17 samples.

Results

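In mushroom body neurons of Drosophila melanogaster, 138 genes were at least 2-fold higher at puparium formation than in the larva and stayed near that level 5 h later. They were selected on the deposited array values themselves. A probe set (the group of short probes on the array that reads 1 transcript) was taken when it carried a single gene symbol, when every 0 h and every 5 h array lay above the highest -18 h array, when both pupal means exceeded the larval mean by at least 1 log2 unit, and when the 0 h and 5 h means differed by less than 0.4. These conditions were met by 138 of the 12443 probe sets with a single symbol, each for a different gene. Of these genes, 105 have proper names and 33 are known by bare annotation numbers.

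All groups shared the genotype yw; UAS-mCD8::GFP/+;; OK107-GAL4, in which the OK107-GAL4 driver labels mushroom body neurons with a membrane-bound green fluorescent protein. Larvae of the last instar were taken about 18 h before puparium formation (7 arrays), white prepupae at 0 h (7 arrays) and pupae at 5 h (3 arrays). Each array read a pool of 40 laser captures of about 100 labelled cell bodies each, from frozen sections of 15 µm, with about 22 ng of total RNA amplified in 2 rounds. Cell bodies alone were captured, so RNA in axons and dendrites was not sampled, and the driver's full set of cells, whatever their age or subtype, was read together.

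The mushroom body is the paired centre of the insect brain for olfactory learning. At metamorphosis its gamma neurons, the earliest born of its intrinsic neurons, prune their larval axon and dendrite branches and later regrow adult ones. The steroid hormone ecdysone, acting through its receptor in these neurons, is known to start this programme, which in flies draws on ubiquitin-dependent protein breakdown, TGF-beta signalling and the clearance of debris by glia.

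The markers of mushroom body neurons did not all behave alike. The transcription factor ey was at 8.97 ± 0.31 (SD, n = 7) log2 in the larva, 8.66 ± 0.23 (SD, n = 7) at 0 h and 8.75 ± 0.06 (SD, n = 3) at 5 h. The transporter gene prt changed by -2.59 at 0 h and -4.31 at 5 h and the dopamine receptor gene Dop1R1 by -0.91 and -1.05 (limma, called at both times), mamo was higher by 0.83 at 0 h and toy by 1.08 at 5 h, and group means of elav, nSyb and dac lay between 4.43 and 4.91. The mean level of 10 measured mushroom body markers was 6.39 to 7.03 across larval arrays, 6.43 to 6.67 at 0 h and 6.24 to 6.43 at 5 h. None of the 9 measured glial markers met the conditions, a count near the share of 1.27% of all genes that did. The mean of these markers was 5.61 to 5.81 in the larva, 5.54 to 5.91 at 0 h and 5.82 to 5.93 at 5 h. That mean covers opposite changes: by limma repo, the glial transcription factor, was higher by 1.04 at 0 h and 0.87 at 5 h and drpr, the engulfment receptor, by 0.62 and 0.61, nrv2 was higher by 0.76 at 5 h, Gs2 changed by -0.54 and -0.62, and wrapper by -0.77 at 0 h. Signal of salivary glue genes and of the muscle gene Mlc2 marked 5 of the 7 larval arrays (1, 4, 5, 6 and 7) and no pupal array. Sgs means reached 11.51 in the larva against at most 3.89 at 0 h and 3.71 at 5 h. Fat body genes gave signal in all 3 groups. The mean of 7 measured fat body markers was 6.19 to 7.88 in the larva, 5.74 to 6.97 at 0 h and 6.56 to 7.78 at 5 h. By limma 1 of them was higher and 3 lower at 0 h, and 2 were higher (Fbp1 by 2.08) and 1 lower at 5 h. Signs of RNA length moved with the groups: the eIF-4a control's 3' minus middle signal was 2.91 to 3.12 log2 in the larva, 2.53 to 3.005 at 0 h and 2.56 to 2.59 at 5 h. The 5' BioDn spike-in read 7.69 to 7.98 on the 5 h arrays and on 0 h array 1, and 8.82 to 10.49 on all others. The part of these measures in the members' levels was not tested. In pooled tissue of this kind, fewer cells of a type and less RNA per cell cannot be told apart.

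Without the limits on size, 620 of the 12443 probe sets (4.98%) had all 10 pupal arrays above all 7 larval ones. Both rises reached 1 log2 unit in 174 of them. Of those 174, 138 were held between 0 h and 5 h, 19 were higher by 0.4 or more at 5 h, and 17 were lower by 0.4 or more. A further 14 probe sets with no symbol and 1 with several symbols met the same value limits and could not be named. All values of the 138 in these 3 comparisons chose them, so they are described here, and no limma call on a member is read as support.

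The rise over the larval mean ran from 1.001 to 4.75 log2 units at 0 h, with a median of 1.36 and quartiles of 1.18 and 1.73. At 5 h it ran from 1.0002 to 4.995, with a median of 1.40 and quartiles of 1.15 and 1.72. On a linear scale the median member was 2.56-fold higher at 0 h and 2.63-fold at 5 h. Most members thus lay close to the lower limit, and 15 were at least 4-fold higher at both times, 4 at least 8-fold and 2 at least 16-fold. Over all 13966 probe sets the median change was -0.02 at 0 h and -0.07 at 5 h.

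**Figure D1:**
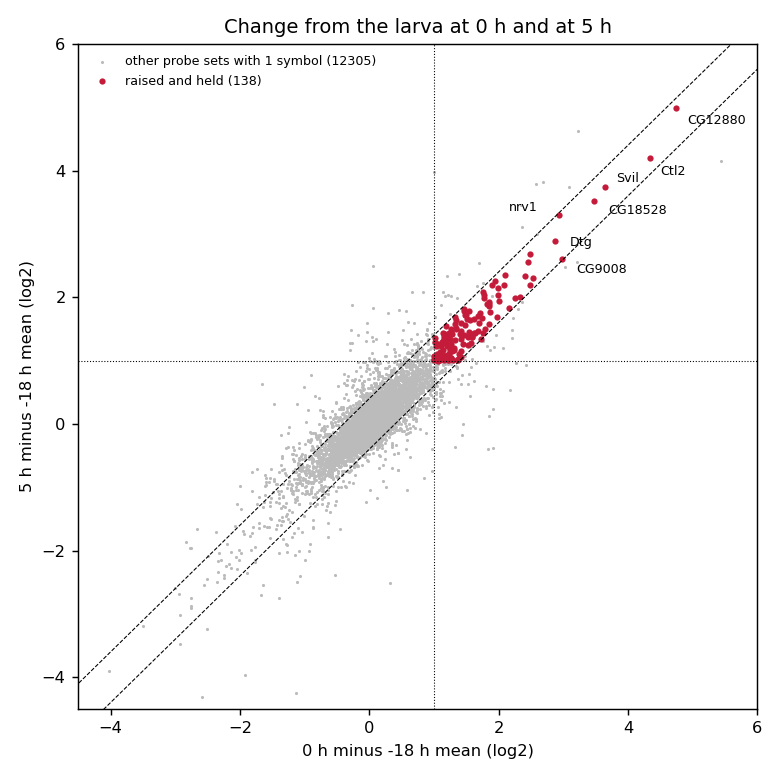
Change of the group mean from the larva at 0 h (x axis, log2 units) and at 5 h (y axis, log2 units) for the 12443 probe sets with a single symbol. Red points are the 138 raised and held genes, grey points the rest; dotted lines mark a rise of 1 and dashed lines a difference of 0.4 between the 2 times. The red points lie in the corner set by these lines, up to 4.75 at 0 h and 4.995 at 5 h.

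A linear model over all arrays (limma, Benjamini-Hochberg adjusted p under 0.05) gives the background. It called 13.6% of the 13966 probe sets higher and 11.9% lower at 0 h than in the larva, and 11.0% higher and 9.06% lower at 5 h. All 138 members were among the higher ones at both times, which the selection fixes. Between 5 h and 0 h it called 2.36% higher and 1.42% lower, or 527 in all, which fell to 332, 311 and 304 without 5 h arrays 1, 2 and 3 in turn. None of the 138 members was among these calls in limma (8 higher and 8 lower at an unadjusted p under 0.05). The limit of 0.4 on that difference leaves little room for such calls, so nothing is read from their absence. The smallest limma adjusted p among the members was 0.0582, and Ubi-p63E passed in some alternatives at an unchanged difference of 0.35. Both pupal comparisons share the larval arrays, so a member's 2 rises are not independent of each other.

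The 5 h mean was above the 0 h mean in 73 members and below it in 65, with a median difference of 0.01 and a range from -0.38 to 0.37. In 47 members the difference was under 0.1. Set against 0 h array 1 alone, the 0 h array with BioDn signal as low as at 5 h, the median difference was -0.18. Only 103 members then lay within the limit of 0.4. That comparison rests on a single 0 h array. The spread among replicates had a median SD of 0.25 in the larva, 0.23 at 0 h and 0.15 at 5 h, against 0.18, 0.16 and 0.10 over all probe sets with a single symbol. The distance from the highest larval array to the lowest pupal array ran from 0.02 to 4.04 log2 units with a median of 0.68. It was 1 or more in 33 members and under 0.1 in 6, namely not, CG13784, hpo, Stt3A, sn and nonA, which were singled out after their values were seen.

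A few arrays often set the edges of the gap between larva and pupa. Larval array 4 was the highest larval array in 75 of the 138 members, and its mean over the members lay 0.26 above their larval mean. Among the pupal arrays, 0 h array 7 was the lowest in 41 members, 0 h array 5 in 39 and 5 h array 3 in 22. The mean rise over the 138 members was 1.38 on 0 h array 7, the lowest, and 1.72 on 0 h array 1, the highest, with 1.48 to 1.66 on the 5 h arrays. Array 7 at 0 h also had the lowest 3' minus middle signal of the actin control, 2.36 log2 against 2.65 to 3.84 on the others.

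**Figure D2:**
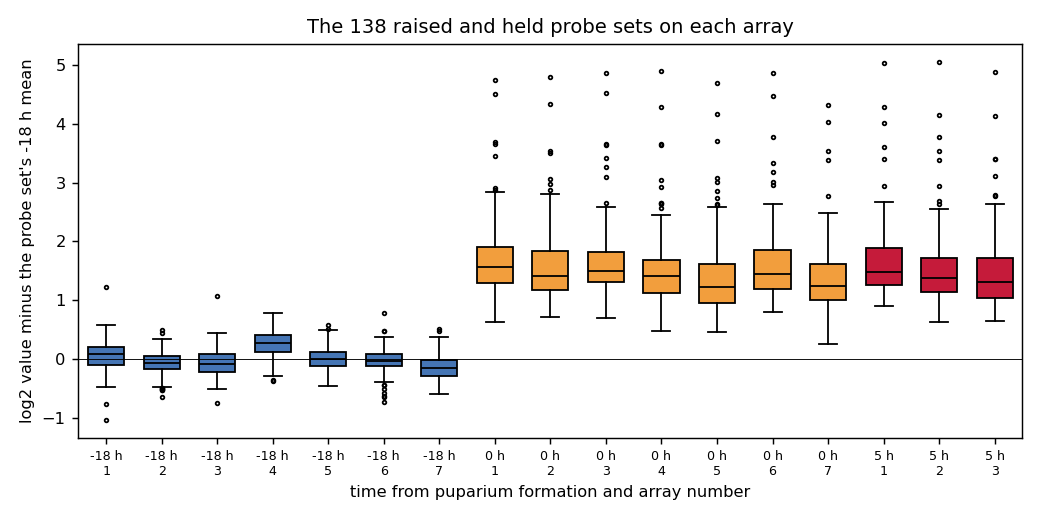
Each box shows the 138 members on 1 array, as log2 value minus the probe set's larval mean; boxes span the quartiles, lines mark medians, whiskers reach 1.5 times the box and circles are members beyond them. Blue boxes are -18 h, orange 0 h and red 5 h. Pupal medians lie between 1.23 and 1.57, and larval array 4 stands highest among the larval arrays with a median of 0.27.

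Genes with a published role in neuronal pruning gave 4 members. orion, which encodes a secreted chemokine-like signal that draws glia into the pruning gamma axons, read 6.52 to 7.16 with a median of 6.84 in the larva, 9.06 to 9.48 with a median of 9.16 at 0 h, and 9.36, 8.95 and 9.19 on the 5 h arrays. The lowest pupal array thus stood well clear of the highest larval one, and the means were 5.31-fold at 0 h and 5.06-fold at 5 h of the larval mean. Dronc, the initiator caspase of the fly, which also acts without killing the cell in dendrite pruning, read 4.90 to 5.54 with a median of 5.37 in the larva. At 0 h it read 7.07 to 7.38 with a median of 7.21, and at 5 h 7.52, 7.42 and 7.55. All 3 of its 5 h values were above the highest 0 h value, with a difference of 0.29 between the means.

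IKKepsilon, a kinase needed for dendrite pruning of sensory neurons, read 5.24 to 5.91 with a median of 5.49 in the larva, 6.595 to 7.48 with a median of 6.997 at 0 h, and 7.04, 7.22 and 6.94 at 5 h. Its pupal groups overlapped fully. Med (Medea), the co-Smad of the TGF-beta and BMP pathways, was higher by 1.04 at 0 h and 1.22 at 5 h, with larval arrays at 5.88 to 6.496 with a median of 6.35. Of the 48 measured genes on the list of pruning genes, 16 were higher and 7 lower at 0 h by limma, and 10 higher and 9 lower at 5 h. The 4 members are among the higher ones by selection, and 12 of the 44 others were higher at 0 h. The median of the list was 0.04 at 0 h and -0.03 at 5 h. With 1 probe set for each of the 10826 genes, 1641 were higher and 1322 lower at 0 h, and 1323 higher and 979 lower at 5 h. The medians were -0.02 and -0.06, and 286 genes were higher and 163 lower at 5 h than at 0 h. These counts over all genes are those beside which every list is set here. On each list, as over all genes, any members are counted among the higher ones, which the selection fixes. The 138 members are 1.27% of those genes, so a list of this size holds few or none at that share, and the number of members on a list is a count only.

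Other members act in cell death, engulfment and immunity, and those on no list were chosen for their role after their values were seen. spz, the ligand of the Toll receptor, averaged 5.62 ± 0.35 (SD, n = 7) in the larva, 7.32 ± 0.28 (SD, n = 7) at 0 h and 7.21 ± 0.17 (SD, n = 3) at 5 h. casp (caspar), a negative regulator of the Imd immune pathway, was higher by 2.16 at 0 h and 1.82 at 5 h. prtp (pretaporter), a ligand known to mark dying cells for engulfment through Draper in flies, was higher by 1.42 at 0 h and 1.59 at 5 h. Eato, an ABC transporter, was higher by 1.26 at 0 h and 1.05 at 5 h. In the antimicrobial and immune list, 7 of 30 measured genes were higher and 4 lower at 0 h, and 9 higher and 2 lower at 5 h.

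Pxn (Peroxidasin), an extracellular matrix enzyme that hemocytes make, was the only member on any list of cell type markers. These lists are so short that few or no members is near the overall share of 1.27%. Pxn read 5.02 to 6.13 with a median of 5.57 in the larva, 6.39 to 6.89 with a median of 6.53 at 0 h, and 6.85, 7.11 and 6.72 at 5 h. That its larval and pupal arrays did not overlap is required by the selection. The 10 measured genes of the hemocyte and basement membrane list had a mean of 3.91 to 4.61 in the larva, 3.99 to 4.13 at 0 h and 4.17 to 4.34 at 5 h. The defining hemocyte genes Hml, NimC1 and eater, with LanB1, stayed below 4 log2 on every array. By limma 1 gene of this list, Pxn, was higher and 3 lower at 0 h, and at 5 h Pxn and SPARC (by 0.73) were higher and 1 gene, Hml, lower.

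**Figure D3:**
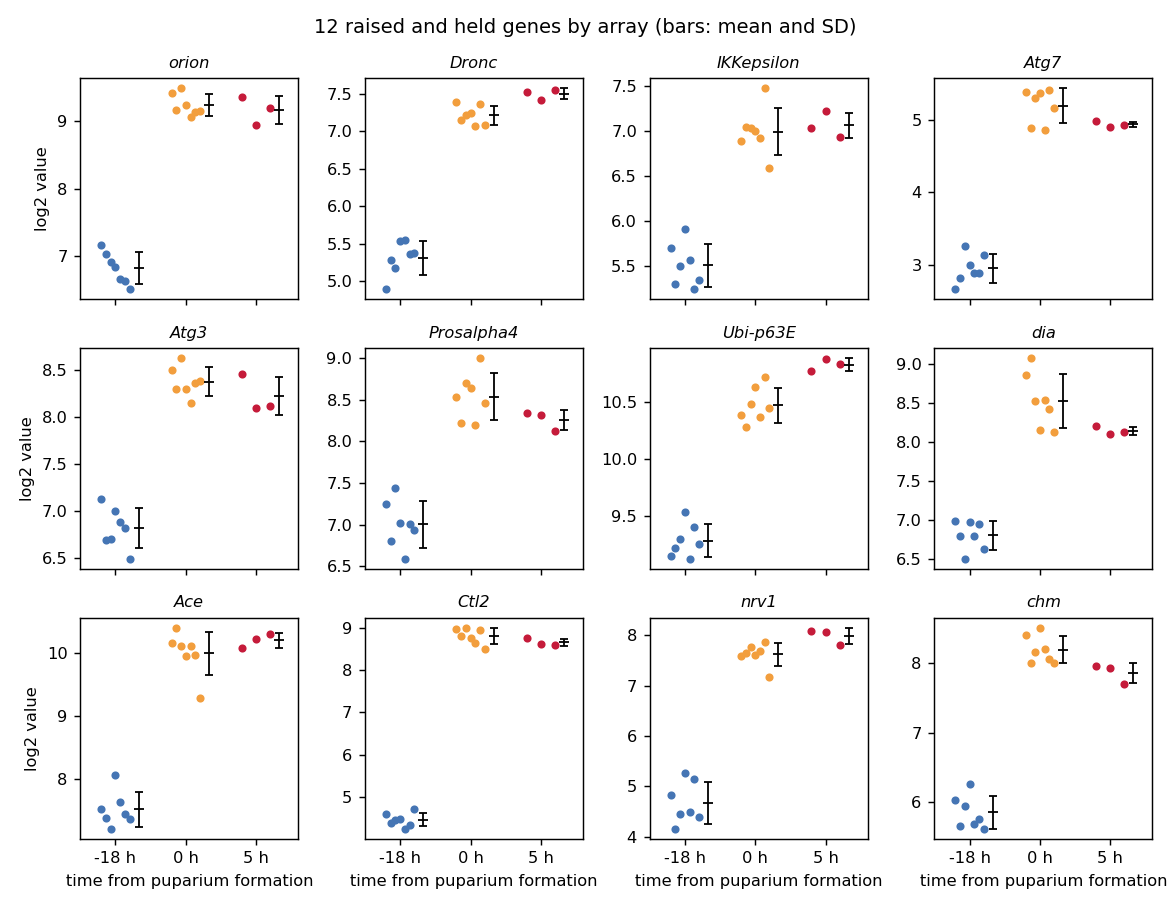
Log2 values of 12 members on every array, with -18 h in blue, 0 h in orange and 5 h in red; bars give the mean and SD of each group (n = 7, 7 and 3), and each panel has its own scale, which does not start at 0. In every panel all pupal points lie above all larval points, as the selection requires, and in the panels of Dronc and Ubi-p63E the 5 h points also lie above the 0 h points.

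Autophagy, the delivery of cell contents to the lysosome in a membrane sac, was represented by 2 enzymes of the pathway that attaches Atg8 to lipid. Atg7, the E1-like activating enzyme, read 2.66 to 3.26 with a median of 2.88 in the larva, 4.86 to 5.42 with a median of 5.30 at 0 h, and 4.98, 4.91 and 4.93 at 5 h. Its larval mean of 2.95 was below the lower quartile of the larval arrays, as in only 3 other members (CG16854, nonA and CG5262), so its larval level was near the floor of the array. Atg3, the E2-like enzyme that follows it, averaged 6.82 ± 0.21 (SD, n = 7) in the larva, 8.37 ± 0.15 (SD, n = 7) at 0 h and 8.22 ± 0.20 (SD, n = 3) at 5 h. Of the 26 autophagy genes measured, 11 were higher and 1 lower at 0 h by limma, and 8 higher and 2 lower at 5 h, with medians of 0.25 and 0.14. Apart from the 2 members, 9 of 24 were higher at 0 h.

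Lysosomal enzymes were also among the members. CtsB, a cysteine protease of the cathepsin B kind, read 9.04 to 9.31 with a median of 9.14 in the larva, 10.05 to 10.77 with a median of 10.39 at 0 h, and 10.82, 10.58 and 10.46 at 5 h. GILT2, of the family of lysosomal thiol reductases, was higher by 1.95 at 0 h and 2.26 at 5 h, with larval arrays at 3.68 to 5.09 with a median of 3.90. Its highest larval array, array 3, lay more than 1 log2 unit above the other larval arrays. Members picked after their values were seen are Ids (iduronate 2-sulfatase), higher by 1.75 at 0 h and 2.09 at 5 h, betaGlu (beta-glucuronidase), higher by 1.48 at 0 h and 1.72 at 5 h, and Ppt2 (a palmitoyl-protein thioesterase), higher by 1.23 at 0 h and 1.11 at 5 h. ClC-b, a chloride channel of the family found in endosomes and lysosomes, was higher by 1.46 at 0 h and 1.81 at 5 h. Of the list of lysosome and vacuolar ATPase genes, 5 of 26 measured were higher and 15 lower at 0 h by limma, and 7 higher and 9 lower at 5 h, with medians of -0.38 and -0.19.

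The proteasome, which degrades ubiquitin-tagged proteins, gave 2 members, both subunits of the outer ring of its core particle. Prosalpha4 read 6.59 to 7.44 with a median of 7.01 in the larva, 8.19 to 8.99 with a median of 8.53 at 0 h, and 8.33, 8.31 and 8.12 at 5 h. Prosalpha7 averaged 6.92 ± 0.16 (SD, n = 7) in the larva, 8.08 ± 0.22 (SD, n = 7) at 0 h and 7.99 ± 0.09 (SD, n = 3) at 5 h. Of the 26 other proteasome genes measured, 23 were higher at 0 h by limma. With the 2 members, 25 of 28 were higher and none lower at 0 h (also none lower at an unadjusted p under 0.05), and 19 higher and 1 lower at 5 h. The list's median was 0.83 at 0 h and 0.44 at 5 h, and 9 of the 28 were lower at 5 h than at 0 h.

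Among ubiquitin genes, Ubi-p63E, which encodes a polyubiquitin precursor, read 9.12 to 9.53 with a median of 9.26 in the larva, 10.28 to 10.71 with a median of 10.44 at 0 h, and 10.77, 10.88 and 10.82 at 5 h. Every 5 h value lay above the highest 0 h value, with a difference of 0.35 between the means. The ubiquitin ligases ari-2, of the ariadne family, and Ube3a, whose human counterpart is the Angelman syndrome gene, were higher by 1.27 at 0 h and 1.05 at 5 h and by 1.29 at 0 h and 1.01 at 5 h. Over the list of 44 ubiquitin genes, 20 were higher and none lower at 0 h by limma. At 5 h, 16 were higher and none lower. At an unadjusted p under 0.05, 2 were lower at 0 h and 1 at 5 h. Apart from the 3 members, 17 of 41 were higher at 0 h. Related members, picked after their values were seen, were CSN5, the catalytic subunit of the COP9 signalosome, higher by 1.24 at 0 h and 1.43 at 5 h, and Plap, a phospholipase A2 activator protein, higher by 1.20 at 0 h and 1.39 at 5 h. Pngl, which strips sugar chains from misfolded proteins, was the member nearest to the lower limit, at 1.06 at 0 h and 1.0002 at 5 h.

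Genes of the cytoskeleton and membrane traffic made up 16 members. Svil (supervillin), an actin-binding protein of the villin and gelsolin family, read 5.91 to 6.35 with a median of 5.96 in the larva, 9.60 to 9.84 with a median of 9.71 at 0 h, and 10.08, 9.85 and 9.47 at 5 h. On this probe set the means were 12.5-fold at 0 h and 13.3-fold at 5 h of the larval mean. Its lowest pupal array exceeded the highest larval one by more than 3 log2 units. No other probe set of Svil rose as far, and their time courses differed, as given below. dia (diaphanous), a formin that nucleates unbranched actin filaments, read 6.499 to 6.98 with a median of 6.80 in the larva, 8.12 to 9.07 with a median of 8.52 at 0 h, and 8.20, 8.10 and 8.12 at 5 h. It had the widest difference of the set between the pupal times, -0.38, and within the arrays of low spike-in signal alone the difference was -0.67, so its place among the held genes rests on which arrays are used. By limma 11 of 32 measured actin regulators were higher and 6 lower at 0 h, and 9 higher and 1 lower at 5 h.

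aru (arouser), an Eps8-like adaptor protein, averaged 4.54 ± 0.18 (SD, n = 7) in the larva, 6.65 ± 0.45 (SD, n = 7) at 0 h and 6.90 ± 0.29 (SD, n = 3) at 5 h. Rab10, a small GTPase of membrane traffic, read 8.98 to 9.41 with a median of 9.17 in the larva, 10.32 to 11.09 with a median of 10.61 at 0 h, and 10.76, 10.44 and 10.63 at 5 h. Its 5 h values all lay within the range of the 0 h values. Of the 38 endosome, ESCRT and Rab genes, 19 were higher and 4 lower at 0 h by limma, and 18 higher and 4 lower at 5 h, with medians of 0.23 and 0.32.

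nudC, a protein that works with the motor dynein, was higher by 1.33 at 0 h and 1.69 at 5 h, the largest gain from 0 h to 5 h in the set. beat-IIIc, an immunoglobulin-domain protein of the Beaten path family of axon guidance molecules, read 4.22 to 5.05 with a median of 4.42 in the larva, 5.74 to 6.27 with a median of 6.17 at 0 h, and 6.40, 6.02 and 6.21 at 5 h. It was 1 member among 73 measured axon guidance and adhesion genes, near the overall share of 1.27%, and 17 of the 73 were higher and 3 lower at 0 h by limma. Members with related roles, picked after their values were seen, included Septin1, a filament-forming GTPase, at 1.78 at 0 h and 1.99 at 5 h, Sec10, an exocyst subunit, at 1.42 at 0 h and 1.16 at 5 h, gek, a kinase bound by Cdc42, at 1.41 at 0 h and 1.05 at 5 h, and sn (singed), the fly fascin that bundles actin, at 1.01 at 0 h and 1.30 at 5 h.

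**Figure D4:**
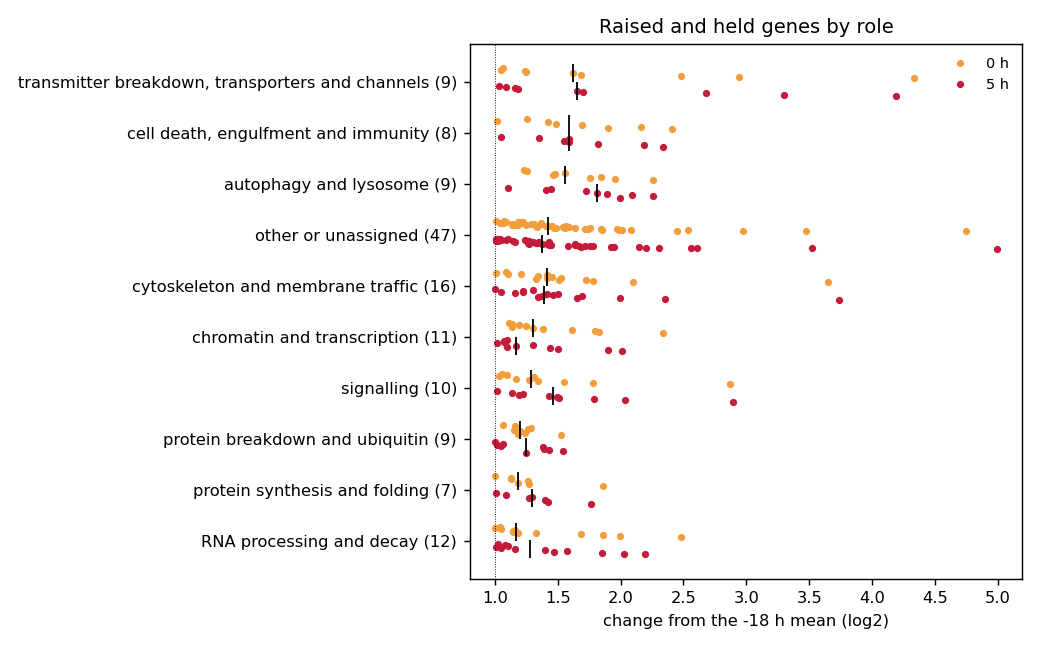
Change from the larval mean (x axis, log2 units) of every member at 0 h (orange) and 5 h (red), by role; numbers in brackets count the members and black ticks mark medians. The roles were assigned after the members were known. Medians at 0 h run from 1.17 for RNA processing and decay to 1.62 for transmitter breakdown, transporters and channels.

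Transporters and channels held some of the highest rises of the set. Ctl2, a choline transporter-like protein, read 4.25 to 4.71 with a median of 4.46 in the larva, 8.497 to 8.98 with a median of 8.79 at 0 h, and 8.75, 8.62 and 8.60 at 5 h, or 20.2-fold at 0 h and 18.3-fold at 5 h. nrv1, a beta subunit of the sodium-potassium pump, read 4.16 to 5.27 with a median of 4.498 in the larva, 7.16 to 7.86 with a median of 7.65 at 0 h, and 8.08, 8.06 and 7.80 at 5 h. Its lowest pupal value was that of 0 h array 7. Ace, the acetylcholinesterase that ends cholinergic transmission, read 7.21 to 8.07 with a median of 7.44 in the larva, 9.29 to 10.39 with a median of 10.11 at 0 h, and 10.07, 10.21 and 10.31 at 5 h. Apart from 0 h array 7, its pupal arrays lay between 9.95 and 10.39.

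Indy, a transporter of citrate, averaged 4.05 ± 0.23 (SD, n = 7) in the larva, 5.73 ± 0.37 (SD, n = 7) at 0 h and 5.75 ± 0.35 (SD, n = 3) at 5 h. Irk2, an inwardly rectifying potassium channel, was the only ion channel on the list to meet the conditions and was higher by 1.05 at 0 h and 1.09 at 5 h. Of 48 measured pumps and transporters, 10 were higher and 14 lower at 0 h by limma, and of 46 ion channel genes 7 were higher and 8 lower. Orct, an organic cation transporter picked after its values were seen, was higher by 1.62 at 0 h and 1.65 at 5 h.

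Signalling genes numbered 10. Dtg, named as a target gene of the BMP ligand Dpp, read 4.45 to 6.17 with a median of 4.78 in the larva, 7.505 to 8.21 with a median of 7.79 at 0 h, and 7.89, 7.89 and 7.72 at 5 h. Larval array 1 gave its highest larval value, and the other 6 larval arrays lay at or below 5.07. Akap200, an anchor for protein kinase A, read 10.98 to 11.24 with a median of 11.07 in the larva, 11.98 to 12.31 with a median of 12.22 at 0 h, and 12.37, 12.36 and 11.98 at 5 h. Members picked for their role after their values were seen were Psn (presenilin), the catalytic core of gamma-secretase, which cleaves Notch, at 1.78 at 0 h and 2.03 at 5 h, spict (spichthyin), which acts in the traffic of BMP receptors, at 1.55 at 0 h and 1.79 at 5 h, and tok (tolkin), a Tolloid-like metalloprotease, at 1.31 at 0 h and 1.19 at 5 h. In the list of Wnt, TGF-beta, Notch, EGFR, JNK and insulin signalling, 14 of 54 measured genes were higher and 8 lower at 0 h, and 6 higher and 5 lower at 5 h.

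In chromatin and transcription, chm (chameau), a histone acetyltransferase of the MYST family, read 5.62 to 6.26 with a median of 5.77 in the larva, 8.004 to 8.501 with a median of 8.16 at 0 h, and 7.96, 7.93 and 7.70 at 5 h. The 5 h values lay below the lowest 0 h value, with a difference of -0.33 between the means. Other members of this role, picked after their values were seen, were not (nonstop), a protease that removes ubiquitin from histone H2B, at 1.79 at 0 h and 1.4999 at 5 h, z (zeste), a DNA-binding protein, at 1.30 at 0 h and 1.17 at 5 h, Rbbp5, a subunit of histone H3K4 methyltransferase complexes, at 1.13 at 0 h and 1.31 at 5 h, and Kdm3, a histone demethylase, at 1.25 at 0 h and 1.02 at 5 h. The 5 h mean was above the 0 h mean in 2 of the 11 members of this role and in 8 of the 10 of signalling, against 73 of all 138. The selection bounded this difference and the roles were assigned afterwards, so nothing is read from these counts.

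None of the 39 measured transcription factors of neurons and developmental time met the conditions, nor did any of the 20 nuclear receptors or of the 29 ecdysone response genes, lists so short that a count of 0 is near the overall share of 1.27%. Of the ecdysone response genes, 8 (ftz-f1 and Hr3 among them) stayed below 4 log2 on every array. By limma 9 ecdysone response genes were higher and 3 lower at 0 h, and 7 higher and 4 lower at 5 h. Between 5 h and 0 h, 1 was higher and 8 were lower. Hr78, on the lists of nuclear receptors and of ecdysone response genes, rose at 0 h and fell in part by 5 h. It was 6.87 ± 0.14 (SD, n = 7) in the larva, 9.08 ± 0.23 (SD, n = 7) at 0 h and 8.23 ± 0.20 (SD, n = 3) at 5 h. The 5 h level was lower than at 0 h by 0.85 log2 (limma adjusted p = 0.000248), beyond the limit set on that difference. Hr78 was singled out after its values were seen and does not show why other listed genes were not members. The median change of the ecdysone response genes was 0.03 at 0 h and -0.05 at 5 h.

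RNA processing and decay gave 12 members. Snp (snipper), an exoribonuclease, read 5.29 to 5.96 with a median of 5.66 in the larva, 7.61 to 8.49 with a median of 8.22 at 0 h, and 7.98, 7.82 and 7.61 at 5 h. Dcr-2, the Dicer of the small interfering RNA pathway, read 5.16 to 5.65 with a median of 5.24 in the larva, 6.81 to 7.18 with a median of 7.06 at 0 h, and 6.71, 6.99 and 6.68 at 5 h. Both were thus separated from the larva by more than 1 log2 unit on every array. Smg6, an endonuclease of nonsense-mediated decay, was near the lower limit at 1.002 at 0 h and 1.08 at 5 h. nonA, an RNA-binding protein known for its part in courtship song, read 2.25 to 2.77 with a median of 2.45 in the larva, 2.79 to 4.09 with a median of 3.66 at 0 h, and 3.76, 3.16 and 3.73 at 5 h. Its lowest pupal array was 0.02 above its highest larval one. Of the 46 RNA-binding and translation control genes measured, 10 were higher and 3 lower at 0 h by limma. Ythdf, a reader of methylated adenosine in RNA, was picked after its values were seen and was higher by 1.05 at 0 h and 1.10 at 5 h.

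Protein synthesis and folding gave 7 members. Hsp27, a small heat shock protein, read 9.22 to 9.77 with a median of 9.45 in the larva, 10.502 to 10.79 with a median of 10.59 at 0 h, and 10.74, 10.57 and 10.46 at 5 h. It was the only member on the list of small heat shock and stress genes, of which 14 of 37 measured were higher and 5 lower at 0 h by limma. eEFSec, the elongation factor for selenocysteine, lay at the lower limit at 1.001 at 0 h and 1.01 at 5 h. Dph2, an enzyme of the diphthamide modification of elongation factor 2, at 1.86 at 0 h and 1.76 at 5 h, and Cdc37, a co-chaperone of Hsp90 for kinases, at 1.26 at 0 h and 1.27 at 5 h, were picked after their values were seen.

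The remaining 47 members have other roles or are known only by annotation numbers. CG12880 had the highest rise of the set and read 3.70 to 4.48 with a median of 4.32 in the larva, 8.53 to 9.11 with a median of 9.01 at 0 h, and 9.25, 9.26 and 9.09 at 5 h, or 26.8-fold at 0 h and 31.9-fold at 5 h. CG18528 read 4.27 to 5.31 with a median of 4.79 in the larva, 7.95 to 8.57 with a median of 8.37 at 0 h, and 8.49, 8.41 and 8.28 at 5 h. For both, every pupal array was more than 2 log2 units above every larval one. CG9008 was higher by 2.97 at 0 h and 2.61 at 5 h, and as for dia its difference between 5 h and 0 h passed the limit within the arrays of low spike-in signal, at -0.71 log2 units. CG2852 averaged 9.76 ± 0.13 (SD, n = 7) in the larva, 11.25 ± 0.10 (SD, n = 7) at 0 h and 11.47 ± 0.19 (SD, n = 3) at 5 h, and Ypel, a yippee-like protein, averaged 8.05 ± 0.27 (SD, n = 7) in the larva, 10.59 ± 0.18 (SD, n = 7) at 0 h and 10.36 ± 0.03 (SD, n = 3) at 5 h.

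No member was on the lists of glycolysis (10 measured genes), synaptic vesicle and active zone (20), microtubule and motor (38), cAMP and G protein signalling (44), juvenile hormone (15) or lipid metabolism (36), which is near the overall share for lists of these sizes. In glycolysis 8 of 10 genes were lower by limma at each pupal time and none higher, also at an unadjusted p under 0.05.

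Near the limit of 1 log2 unit, the members just inside were Pngl, eEFSec and Smg6, given above. Just outside were l(2)gd1, at 1.11 at 0 h and 0.9987 at 5 h, Gmppb, at 0.99 and 1.06, and JMJD4, at 1.15 and 0.99. For the difference between 5 h and 0 h, dia at -0.38, nudC at 0.37 and CG9008 at -0.37 were just inside the limit, and fry at -0.40, pch2 at 0.41 and CG9801 at -0.43 were just outside.

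Some member genes were read by further probe sets. For 122 of the 138 genes the member was the gene's only probe set with a single symbol, and the other 16 genes had 28 further probe sets. By limma 4 of the 28 were higher at 0 h and none lower (5 and none at an unadjusted p under 0.05), 1 was higher and 1 lower at 5 h, and 23 passed at neither time. Their median change was -0.01 at 0 h and -0.10 at 5 h. Most of these probe sets were dim, with 23 of 28 never above 5 log2 on any array. Their median larval level was 3.58, against 5.65 for the members of the same genes. Some were not dimmer than the member. A probe set of pyd at 5.41 in the larva (member 5.15) changed by -0.15 at 0 h and -0.12 at 5 h. That of Srpk79D at 4.16 (member 3.56) changed by -0.02 and 0.005. Both were singled out after their values were seen.

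The only probe set that was higher at both times was 1 of the 8 others of Svil, by 1.03 at 0 h and 0.50 at 5 h (limma adjusted p = 1.36e-07 at 0 h). Another probe set of Svil, at 6.97 ± 0.43 (SD, n = 7) in the larva and 8.29 ± 0.16 (SD, n = 7) at 0 h, was back at 6.61 ± 0.22 (SD, n = 3) at 5 h. The probe set that was lower at 5 h was also of Svil, with changes of -0.04 at 0 h and -0.30 at 5 h (limma adjusted p = 0.0238 at 5 h). The probe sets of Svil thus gave different time courses. The other probe set of GILT2 was higher by 0.26 at 0 h (limma adjusted p = 0.0265). For pyd, the junction protein ZO-1 of the fly, none of 5 other probe sets passed limma at 0 h, adjusted or not, with changes from -0.15 to 0.02.

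**Figure D5:**
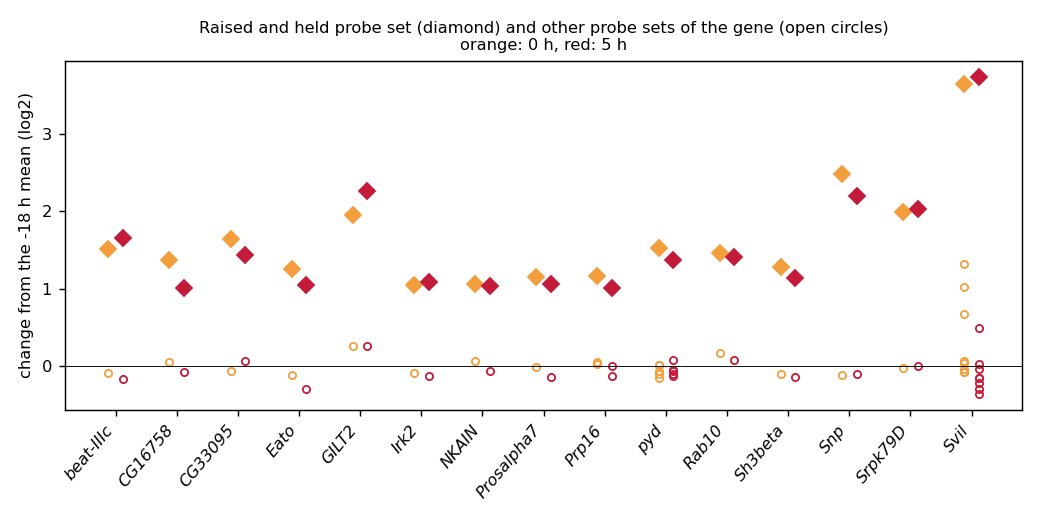
Change from the larval mean (y axis, log2 units) for 15 of the 16 members whose gene has further probe sets: diamonds are the member probe sets, open circles the others, orange at 0 h and red at 5 h. The other probe sets lie near 0, except some of Svil, which reach 1.32 at 0 h. The gene caz is not drawn. Over all 28 other probe sets, with that of caz, the median was -0.01 at 0 h and -0.10 at 5 h.

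Gene length and position were not used by the selection. The 137 members with an entry in the Release 6 gene table had a median gene length of 3835 bp, with quartiles of 2207 and 6455 bp, against 2384.5 bp, with quartiles of 1363 and 5548 bp, for all 10792 genes measured. Among the 2419 probe sets whose mean over the groups was at least 5.97 log2, the lower quartile of the members, the median was 2461 bp. By chromosome arm, 3L held 33 members (23.9% against 19.4% of all genes measured), 3R held 34 (24.6% against 25.1%), 2R held 27 (19.6% against 20.1%), X held 22 (15.9% against 16.2%) and 2L held 21 (15.2% against 18.2%). None lay on chromosome 4. A single pair of members, Smg6 and Ythdf on 3R, were direct neighbours.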

How the data were processed

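RNA of laser-captured mushroom body neurons was read on 17 Affymetrix Drosophila Genome Arrays. The authors deposited log2 values for 14010 probe sets, which the submitters' processing notes credit to the RMA method of the Affymetrix Expression Console. Not given in the sources used here are the versions and whether all arrays were normalised in 1 run. All 17 columns were mapped from the labels, and the values were used as deposited. Replicates are described as biological, without naming the animals. Because probe affinities differ, levels are compared within a probe set only, and the number of arrays limits the precision.

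After 44 control probe sets were left out, 13966 were tested with limma 3.58.1 in R 4.3.3 (lmFit and eBayes, a single fit over the 3 groups, two-sided, Benjamini-Hochberg, threshold 0.05), which was tested on simulated data. The array's annotation gave 1 symbol to 12443 probe sets, several to 327 and none to 1196; 38 symbols were updated through the RefSeq Release 6 gene table, and 57 were not in it. On lists, a gene is read by its probe set of highest mean. The members and the lists were chosen with earlier results of these data known. Genes are named for the 12 largest mean rises with proper symbols, the 3 largest with bare names, the 5 highest pupal levels, up to 4 members per list, the nearest 3 on each side of each limit, and members with another probe set that fell; others were picked after their values were seen. Promoter motifs and protein lengths were not analysed here, and the values of some members are not reported here. Alternatives covered the limits, the normalisation, dim probe sets, spike-in sets, larval arrays with glue or muscle signal, other forms of the model, the replicate number as a block, and each array left out.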

Additional observations from a re-analysis of the deposited data

Results flagged for a closer look

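In 82 groups of 7 arrays, of the 41 members named by rule at -18 h and 0 h, 5 held 1 array far from the rest by Dixon's criterion, which chance meets in about 1 group in 20. In 3 of them the array was 0 h array 7: nrv1 read 7.16 there against 7.59 to 7.86 on the other 0 h arrays, Ace 9.29 against 9.95 to 10.39, and CG12880 8.53 against 8.8997 to 9.11. The same array was the lowest pupal array in 41 of the 138 members. In the larva, Dtg read 6.17 on array 1 against 4.45 to 5.07 on the others, and GILT2 read 5.09 on array 3 against 3.68 to 4.02. All 5 genes met the selection with these arrays included.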

How the results depend on the processing

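The number of members followed the limit on the rise, with 213 at 0.8 log2 and 40 at 1.5. Other choices gave 115 to 196: 117 with quantile normalisation (113 of them among the 138), 122 within the arrays of lower spike-in signal (102 among the 138), 130 with 0 h array 1 as the only 0 h array (97 among the 138), and 196 without the 5 larval arrays that carried glue or muscle signal, which leaves 2 (133 among the 138). The alternatives with array 1 and without larval arrays 2 and 3 (115) were added after seeing the data, as was the higher spike-in set alone for 0 h against -18 h (2867 calls against 3568). Leaving out 1 array at a time gave 120 (without 5 h array 1) to 164 (without larval array 4) members. For 5 h against 0 h, leaving out 1 array gave 304 to 562 calls against 527, and without 5 h arrays 1, 2 and 3 in turn 332, 311 and 304; fewer arrays were then compared. Some differences between 5 h and 0 h left the limit of 0.4. Only members that limma called for this difference in an alternative (adjusted p under 0.05) are listed here. Within the lower spike-in set CG9008 (-0.71), dia (-0.67), RanBPM (-0.56) and CG3223 (-0.48) left the limit. The replicate block moved CG9008 (-0.59) and Ubi-p63E (0.43) beyond it. A model that blocked on spike-in level did the same for dia (-0.58), casp (-0.50) and RanBPM (-0.50). Without 0 h array 3, ClC-b (0.41) passed it. Inside the limit, at 0.35, limma called Ubi-p63E without dim probe sets (adjusted p = 0.0364) and without larval array 4 (adjusted p = 0.0380). Without the larval glue or muscle arrays it was also called (limma adjusted p = 0.0453). These genes were singled out after their values were seen. Of the other probe sets of member genes, 1 was higher at both times, 0 of the 4 tested without dim probe sets and 2 with quantile normalisation. Between arrays of the same replicate number, the correlations of their deviations ran from -0.28 to 0.37. No correlations between unlike numbers were set beside these, so whether the numbers pair the arrays was not tested. With the number as a block the calls were 3623 against 3568 at 0 h, 2682 against 2799 at 5 h and 399 against 527 between them. Over 2044 recomputed rises of the named members, 2026 moved by less than the larval replicate SD, 18 by more, and none changed sign. The members were selected on these same rises. Some alternatives, such as another form of the eBayes step, cannot alter a difference of means. Nothing is therefore read from these counts. With 3 arrays at 5 h, small differences between 5 h and 0 h could not be told from replicate spread.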

Other observations

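Some members of other roles were not described above and were picked after their values were seen. Growth and receptor signalling held hpo (hippo), the kinase that restrains tissue growth, at 1.17 at 0 h and 1.43 at 5 h, Shc, an adaptor of receptor tyrosine kinases, at 1.27 at 0 h and 1.49 at 5 h, PRL-1, a phosphatase, at 1.35 at 0 h and 1.51 at 5 h, and Ror, a receptor tyrosine kinase, at 1.05 at 0 h and 1.01 at 5 h. In hpo the lowest pupal array, at 3.96, was only 0.06 above the highest larval array. Control of RNA and translation held Srpk79D, a kinase of SR proteins, whose 0 h arrays ran from 4.14 to 6.31 with a median of 5.86, and NAT1, a relative of the initiation factor eIF4G, at 1.86 at 0 h and 1.85 at 5 h. Srpk79D had the widest 0 h spread of the set, with an SD of 0.72 (n = 7). The gene's other probe set changed by -0.02 at 0 h and 0.005 at 5 h. ecd (ecdysoneless), named for the mutant's lack of ecdysone, was higher by 1.59 at 0 h and 1.37 at 5 h, and Start1, a protein with a sterol-binding START domain, by 1.40 at 0 h and 1.41 at 5 h.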
